A study of Mus musculus with 6 samples.

Results

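The genes described here are 10 genes of haem synthesis, breakdown and transport: Alas1, Alad, Urod, Cpox and Fech of the synthesis pathway, Hmox1, Hmox2, Blvra and Blvrb of the breakdown pathway, and the haem transporter Slc48a1. They were chosen by name, and their probes were found through the transcript accession printed on the array. They are 10 of the 21059 genes and unnamed transcripts tested. The search gave 13 probes among 41174, with 1 probe for 7 of the genes and 2 probes for Alas1, Fech and Slc48a1. All 10 genes passed the filter on dim probes, and every one of the 13 probes was well above background on all 6 arrays. RNA came from 3 liver samples labelled as a liver-specific knockout of small Maf (sMaf CKO) and from 3 labelled as wild-type controls. All mice were 5 weeks old and on a mixed background of 129Sv/J, C57BL/6J and ICR. The labels name neither the small Maf genes deleted, nor the promoter that drove the deletion, nor the sex of the mice, and the submitters call the 3 RNA samples of a genotype independent without saying that each came from its own mouse, so p-values measure the spread between these samples.

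Haem is an iron-porphyrin that serves as the working group of haemoglobin, cytochromes P450 and catalase. The liver is, after the erythroid marrow, the tissue that makes most of it. Synthesis starts in mitochondria with 5-aminolevulinate synthase (ALAS1 outside red cells), which haem represses, passes through cytosolic enzymes and ends in mitochondria with ferrochelatase, which inserts the iron. Breakdown starts with haem oxygenase, which opens the ring to biliverdin, carbon monoxide and iron, and biliverdin reductase then makes bilirubin. Small Maf proteins bind DNA as partners of CNC and Bach factors, and Hmox1 is a textbook target of both NRF2, an activator, and BACH1, a repressor that haem releases from DNA. The comparison asks how transcripts of this pathway differ between livers labelled sMaf CKO and their controls.

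Values are log2 intensities minus the 75th percentile of that array's probes, so a difference of 1 is a doubling. The 75th percentile lay between 484.4 and 960.5 intensity units on sMaf CKO arrays and between 483.4 and 609.3 on control arrays, and 58.7% to 73.6% and 58.0% to 69.7% of probes were well above background. Replicates 1 and 2 of both genotypes shared slide 1, and replicate 3 of both was on slide 2, so a value within slide 2 compares 1 array with 1. Mafg, a small Maf gene, read -2.97, -4.36 and -0.76 on the sMaf CKO arrays, against 1.88, 1.87 and 2.23 on the control arrays. Its difference of -4.69 (SE 0.79) just missed the threshold in limma's test over all genes (adjusted p = 0.0533) and lay past it once slide was a block (adjusted p = 0.0207). The other small Maf genes showed no detectable difference, and the groups overlapped in both. Maff differed by 0.15 (SE 0.51, adjusted p = 0.911) and Mafk by 0.21 (SE 0.29, adjusted p = 0.759). Their 95% intervals were -1.035 to 1.334 for Maff and -0.478 to 0.892 for Mafk, so a lower level of either was not excluded. With single arrays left out, Maff ran between -0.375 and 0.521 and Mafk between -0.07 and 0.439. The tissue label was borne out by hepatocyte markers such as Alb and Apoa1: all 9 tested of the 10 listed were well above background on all 6 arrays. In whole liver, fewer cells of a type and less RNA per cell cannot be told apart.

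The promoters of the 2 biliverdin reductase genes are printed here because these genes carry the step after haem oxygenase; the difference of neither passed the test. They run from 250 bases before to 50 after the gene start, are given 5′ to 3′ on the plus strand, and come from RefSeq on GRCm38.p6. The letters TGACNNNGC, the core shared by elements that CNC factors bind with small Maf, were searched on both strands (GCNNNGTCA on the other), and a match is in capitals. Blvra lies at chr2:127070407-127070706 and Blvrb at chr7:27447728-27448027.
Blvra: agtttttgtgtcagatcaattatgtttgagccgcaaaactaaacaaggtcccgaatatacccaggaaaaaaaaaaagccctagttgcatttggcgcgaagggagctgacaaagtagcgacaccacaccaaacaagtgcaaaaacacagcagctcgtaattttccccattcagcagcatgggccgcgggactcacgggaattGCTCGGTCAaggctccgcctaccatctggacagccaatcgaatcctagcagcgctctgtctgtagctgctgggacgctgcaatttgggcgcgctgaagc
Blvrb: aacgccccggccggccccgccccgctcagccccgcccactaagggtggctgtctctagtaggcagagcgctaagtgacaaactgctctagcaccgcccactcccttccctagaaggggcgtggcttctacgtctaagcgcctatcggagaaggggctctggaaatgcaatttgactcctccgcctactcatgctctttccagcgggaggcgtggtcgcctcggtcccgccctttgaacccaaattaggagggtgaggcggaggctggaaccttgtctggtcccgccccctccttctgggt
Blvra held 1 match, which starts 49 bases before the gene start, and the Blvrb window held none. Of the 10 genes, 7 matched the promoter table (Alas1, Alad, Urod, Cpox, Hmox2, Blvra and Blvrb), and Blvra was the 1 of these 7 with a match. Of all 27025 genes given with windows, 14% held the letters in at least 1 of them. The longer form TGACTCAGC, a special case of the same letters, was in none of the 7, against 0.503% of all genes. These letters are a description of the windows, and say nothing on binding.

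Of the 10 genes, Hmox1 alone changed, and it rose 8.74-fold in sMaf CKO liver. Hmox1 encodes the inducible haem oxygenase, the rate-limiting enzyme of haem breakdown. It read 6.92, 5.83 and 5.60 on sMaf CKO arrays 1, 2 and 3, against 3.19, 3.21 and 2.56 on control arrays 1, 2 and 3. The groups were far apart: the lowest sMaf CKO array lay 2.39 above the highest control array, and each sMaf CKO array stood 15.2-fold, 7.16-fold and 6.12-fold above the control mean. The means were 6.12 ± 0.70 in sMaf CKO and 2.99 ± 0.37 in control liver (SD, n = 3 each), a difference of 3.13 (SE 0.38, 95% interval 2.24 to 4.02). In limma's test over all 21059 genes and transcripts this gave an adjusted p of 0.0344, where 114 genes (0.541%) changed, 81 of them (0.385%) upward and 33 (0.157%) downward.

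The Hmox1 difference lay between 2.73 and 3.43 under every alternative tried, whereas its adjusted p lay near the threshold. The difference was 3.17 within slide 1 and 3.04 within slide 2, and with slide as a block the adjusted p was 0.0108. The call was lost without sMaf CKO replicate 1 (2.73, adjusted p = 0.0858) or replicate 2 (3.27, adjusted p = 0.084), and without control replicate 1 (3.23, adjusted p = 0.143) or replicate 3 (2.92, adjusted p = 0.0884). It was also lost under quantile normalization (3.38, adjusted p = 0.0628), under spike-in scaling (3.43, adjusted p = 0.122) and with no filter on dim probes (adjusted p = 0.126). Hmox1 was read by 1 probe, so no other probe of the gene bears on the value. Over all alternatives its adjusted p ran between 0.00989 and 0.143.

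**Figure D1:**
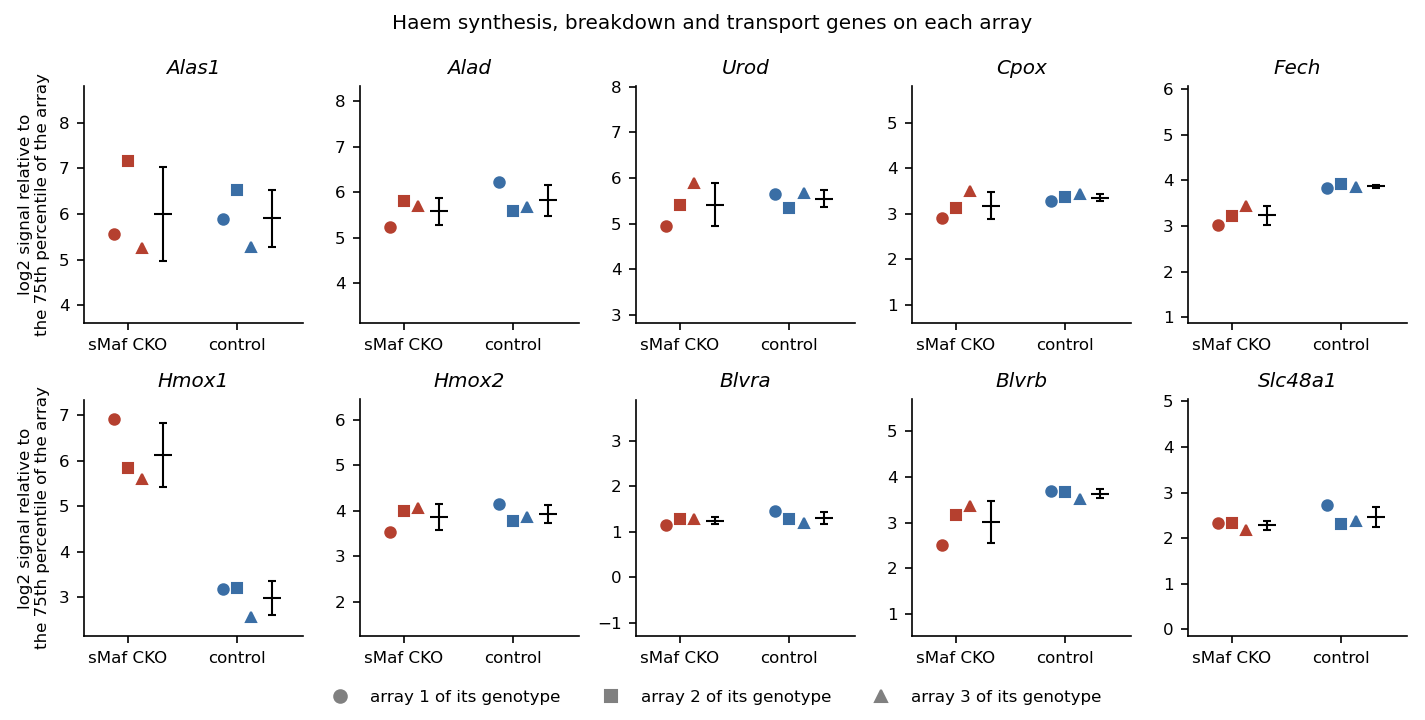
Log2 signal minus the array's 75th percentile (y axis) for each of the 10 genes, with sMaf CKO arrays on the left and control arrays on the right of each panel. Each symbol is 1 array, the bar is the mean with its SD (n = 3), and all panels span the same number of log2 units; Hmox1 is the gene whose groups stand far apart, with 5.60 to 6.92 in sMaf CKO and 2.56 to 3.21 in control liver.

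Resident and recruited macrophages of the liver also make haem oxygenase, so macrophage markers are given beside Hmox1. Of the 8 listed Kupffer cell markers, the residents of the liver sinusoids, all 8 had positive differences, with a median of 0.61. None passed limma's test over all genes (0 of 8), while 3 had an unadjusted p under 0.05, as did 16.8% of all genes. The 2 with the smallest p were Marco, a scavenger receptor (3.73, adjusted p = 0.0859, and 0.0107 with slide as a block), and Cd5l (0.88, adjusted p = 0.173). In 4 of the 8 all sMaf CKO arrays lay above the controls. Of all genes, 22.9% were apart in either direction, and in 11.6% the sMaf CKO arrays lay below. Slc40a1 (0.08), Timd4 (0.29) and Adgre1 (0.45) were among those that overlapped. The summed level of the 8, as multiples of the 75th percentile, was 214 to 443 on sMaf CKO arrays and 109 to 164 on control arrays. It was not taken without Marco, which read 7.69, 6.45 and 5.31 on sMaf CKO arrays, against 3.30, 3.74 and 1.23 on control arrays. Of 7 tested markers of monocyte-derived and lipid-associated macrophages (8 listed), all 7 were positive with a median of 1.03, and their summed level was 26 to 66 on sMaf CKO arrays and 18 to 21 on control arrays. Gpnmb, whose 3 control readings were not well above background, was at least 22.2-fold higher in sMaf CKO liver, a bound set against the dimmest reliable signal of the control arrays. It passed the filter on dim probes through the sMaf CKO arrays alone, so its call is not read as support. Trem2, well above background on 2 of 3 control arrays, rose by 4.18 on the log2 scale (adjusted p = 0.0105). No gene of this list passed without control replicate 1, and Gpnmb lost its call without sMaf CKO replicate 1. Spp1, which cholangiocytes also make, led the sum on sMaf CKO array 1 (47.8), and without it the sums were 16.4 to 19.7 on sMaf CKO arrays and 7.42 to 12.7 on control arrays. The part of macrophage RNA in the Hmox1 value was not tested.

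Hmox2, the constitutive haem oxygenase, showed no detectable difference. It read 3.54, 4.0 and 4.06 on sMaf CKO arrays 1, 2 and 3, against 4.15, 3.78 and 3.87 on control arrays 1, 2 and 3. The groups overlapped, with the lowest and the highest reading on array 1 of each genotype. Its difference was -0.07 (SE 0.24, adjusted p = 0.913), and the 95% interval of the ratio of sMaf CKO to control ran between 0.651 and 1.40. The interval for Hmox1 ran between 4.72 and 16.2, so the intervals of the 2 haem oxygenases do not meet.

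Neither biliverdin reductase passed the test. Blvra, the main reductase of biliverdin in adults, read 1.16, 1.29 and 1.29 on sMaf CKO arrays, against 1.45, 1.29 and 1.19 on control arrays. All 6 readings lay within 0.29 of each other, and the difference was -0.06 (SE 0.20, adjusted p = 0.902, 95% interval of the ratio 0.695 to 1.32). Blvrb, which reduces flavins as well as biliverdin, read 2.50, 3.16 and 3.37 on sMaf CKO arrays, against 3.70, 3.67 and 3.52 on control arrays. The groups did not overlap, but the gap was 0.15 and the sMaf CKO arrays spread far more than the controls (SD 0.46 and 0.10). The difference of -0.62 (SE 0.27) did not pass (adjusted p = 0.303, 95% interval of the ratio 0.42 to 1.01). Slide 1 gave -0.86 and slide 2 gave -0.15, and leaving out sMaf CKO replicate 1 gave -0.37.

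Among the synthesis genes, Alas1 varied the most from array to array and did not differ detectably between genotypes. ALAS1 is the rate-limiting enzyme of haem synthesis in the liver. Its brighter probe read 5.56, 7.17 and 5.25 on sMaf CKO arrays 1, 2 and 3, against 5.90, 6.54 and 5.28 on control arrays 1, 2 and 3. Array 2 was the highest and array 3 the lowest in both genotypes. The second probe read 3.83, 5.31 and 3.29 on sMaf CKO arrays and 4.21, 4.71 and 3.5 on control arrays, which is the same order. The readings spanned 1.92 on the log2 scale, and the difference between genotypes was 0.09 (SE 0.54, adjusted p = 0.95) by the first probe and 0.00 by the second. The 95% interval of the ratio, 0.447 to 2.54, was the widest of the 10 genes on the log2 scale, so a change of up to 2-fold in either direction lies within the error. The difference was -0.49 without sMaf CKO replicate 2 and 0.46 without sMaf CKO replicate 3.

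The cytosolic steps showed no detectable difference. Alad, which condenses aminolevulinate to porphobilinogen, read 5.25, 5.80 and 5.69 on sMaf CKO arrays, against 6.22, 5.59 and 5.67 on control arrays. Its difference was -0.24 (SE 0.27, adjusted p = 0.681). Urod, which decarboxylates uroporphyrinogen, read 4.94, 5.41 and 5.90 on sMaf CKO arrays, against 5.64, 5.35 and 5.66 on control arrays. Its difference was -0.13 (SE 0.29, adjusted p = 0.849). In both genes sMaf CKO array 1 gave the lowest reading of all 6 and the groups overlapped. The ratios of sMaf CKO to control were 0.844 for Alad (95% interval 0.548 to 1.30) and 0.913 for Urod (0.576 to 1.45).

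Cpox and Fech act inside mitochondria, and Fech read lower in sMaf CKO liver by both of its probes. Cpox, coproporphyrinogen oxidase, read 2.91, 3.13 and 3.49 on sMaf CKO arrays, against 3.27, 3.36 and 3.43 on control arrays. The groups overlapped, and the difference was -0.17 (SE 0.23, adjusted p = 0.738, 95% interval of the ratio 0.615 to 1.28). Fech, ferrochelatase, read 3.03, 3.23 and 3.45 on sMaf CKO arrays, against 3.84, 3.91 and 3.86 on control arrays. All 3 sMaf CKO arrays lay below all 3 controls, which differed by an SD of 0.04 among themselves. The difference was -0.63 (SE 0.21), a ratio of 0.644 (95% interval 0.46 to 0.901). It had an unadjusted p of 0.0169 and did not pass over all genes (adjusted p = 0.202, and 0.0979 to 0.89 over the alternatives). The second probe of Fech read 2.21, 2.09 and 2.05 on sMaf CKO arrays and 2.83, 2.66 and 2.32 on control arrays, again without overlap. Its difference was -0.49 (SE 0.22), with a 95% interval of -1.003 to 0.026 that includes 0. Fech was lower within slide 1 (-0.74) and within slide 2 (-0.41), without any single array (-0.74 to -0.53), and under each other background correction, scaling and value table tried, the smallest being -0.33 under spike-in scaling.

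**Figure D2:**
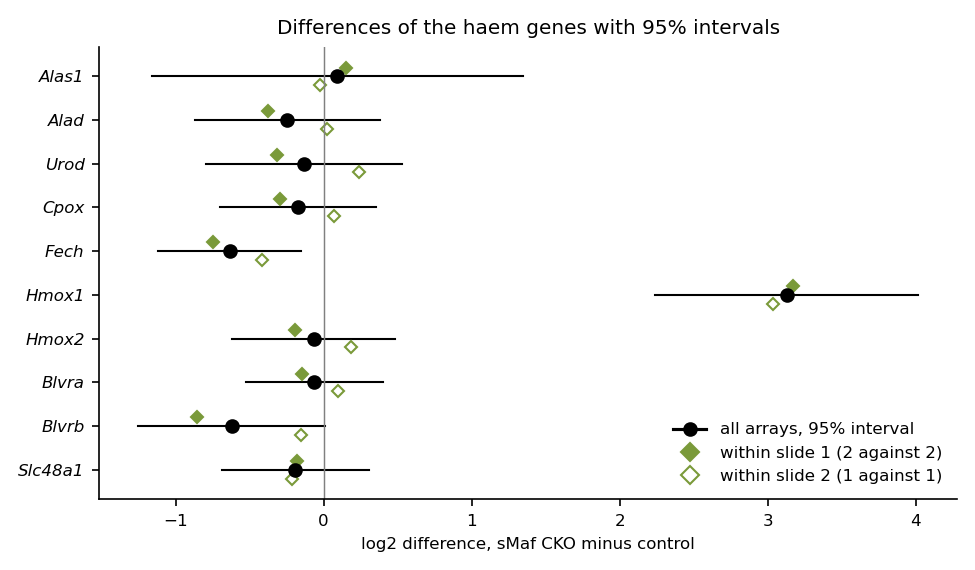
Log2 difference of sMaf CKO minus control (x axis) for the 10 genes (y axis), as black points with 95% intervals from limma over all 6 arrays, and as diamonds within slide 1 (filled) and slide 2 (open). Hmox1 at 3.13 is far from 0, the interval of Fech (-1.12 to -0.15) leaves out 0, and the other 8 intervals include it.

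Slc48a1, also called HRG1, carries haem out of lysosomes into the cytosol, where haem oxygenase acts. It read 2.34, 2.32 and 2.17 on sMaf CKO arrays, against 2.72, 2.30 and 2.39 on control arrays. Control array 1 was the highest and the other 5 readings lay close together. The difference was -0.19 (SE 0.21, adjusted p = 0.686) by this probe and -0.27 (SE 0.25) by the other, with a 95% interval of the ratio of 0.621 to 1.24 for the first. This gene read lower within both slides, with differences of -0.18 and -0.22.

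The median difference of the 10 genes was -0.15, against -0.05 over all genes tested, and 8 of the 10 differences were negative, against 54.7% of all genes. The sign of this median depended on the scaling, with 0.05 under quantile normalization and 0.15 under spike-in scaling, which moves the median of all genes to 0.25. It was -0.03 without sMaf CKO replicate 1 and -0.06 without control replicate 1. In 3 of the 10 genes sMaf CKO and control arrays were fully apart (Hmox1 above, Fech and Blvrb below), beside 22.9% of all genes, of which 11.6% had the sMaf CKO arrays below. The 2 genes below are 2 of 10 beside that 11.6%. At an unadjusted p under 0.05 there were 2 of the 10 (Hmox1 and Fech), beside 16.8% of all genes. On the same arrays the median difference of the 9 hepatocyte markers was -0.42 (-0.59 on slide 1, -0.07 on slide 2, -0.09 under quantile normalization, -0.12 under spike-in scaling and -0.24 without sMaf CKO replicate 1), with a summed level of 1908 to 3239 on sMaf CKO arrays and 2959 to 3457 on control arrays. None of the 9 passed limma's test (0 of 9, with 2 at p under 0.05 unadjusted), all 9 were negative, and 6 of 9 were under quantile normalization. Of 5 cholangiocyte markers 0 passed (1 at p under 0.05 unadjusted), with a summed level of 11 to 50 on sMaf CKO arrays and 9 to 12 on control arrays, but most of it was Spp1, which is also in the macrophage list: without Spp1 the sums were 1.16 to 1.95 on sMaf CKO arrays and 1.15 to 1.51 on control arrays. The part of these shifts in the small negative differences was not tested.

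Other synthesis enzymes not among the 10 genes showed no called change. Of 4 tested, 0 passed limma's test, and 1 had an unadjusted p under 0.05, beside 16.8% of all genes. Alas2, the erythroid form of the first enzyme, read 4.43, 3.29 and 3.55 on sMaf CKO arrays, against 2.31, 3.76 and 2.88 on control arrays, with overlap (0.77, SE 0.44, adjusted p = 0.417). Erythroid markers, a list that also holds Alas2, spread widely within a genotype: the summed level of 7 tested of 10 listed was 12 to 24 on sMaf CKO arrays and 6 to 19 on control arrays, and 0 of 7 passed. Most of that sum was Alas2 itself, and without it the sums were 1.45 to 2.17 on sMaf CKO arrays and 1.44 to 5.54 on control arrays. The 2 with an unadjusted p under 0.05 were Klf1, an erythroid transcription factor (-1.56, adjusted p = 0.143), and Car1, a carbonic anhydrase (-0.84, adjusted p = 0.205), both with all sMaf CKO arrays below the controls. The part of blood cell RNA in the values of the synthesis genes was not tested.

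No carrier or partner of the mitochondrial steps passed. Of 14 tested, 12 had negative differences (median -0.30) beside 54.7% of all genes, and 0 passed limma's test. An unadjusted p under 0.05 was found in 5, beside 16.8% of all genes. This list was chosen with earlier results of these data known, so neither count is read against these shares. Under spike-in scaling 7 of the 14 were negative and the median was 0, and under quantile normalization 8 were (median -0.27). Pgrmc1, a haem-binding partner of ferrochelatase, read 5.83, 6.33 and 6.47 on sMaf CKO arrays, against 7.27, 6.99 and 7.31 on control arrays. Its groups did not overlap (-0.98, SE 0.25, adjusted p = 0.129). Abcb6, an ABC transporter linked to porphyrin transport, read 1.39, 2.66 and 2.71 on sMaf CKO arrays, against 3.51, 3.39 and 3.54 on control arrays (-1.23, SE 0.37, adjusted p = 0.176). Abcb6 too was lower on every sMaf CKO array, array 1 being the lowest.

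Genes that move haem across membranes or bind it in plasma showed no called change. Of 4 importers and exporters 0 passed limma's test, and 1 had an unadjusted p under 0.05, beside 16.8% of all genes. Their median was 0.11 (0 without control replicate 1, 0.24 without control replicate 2 and 0.41 under spike-in scaling). Flvcr2, a transporter related to the haem exporter FLVCR1, read 1.43, 1.78 and 1.90 on sMaf CKO arrays, against 0.92, 0.47 and 0.60 on control arrays (1.04, SE 0.24, adjusted p = 0.105), and Flvcr1 differed by 0.42 (adjusted p = 0.471). Of 4 scavenging genes 0 passed (1 at an unadjusted p under 0.05), with a median of 0.19, which was 0.07 without sMaf CKO replicate 3 and 0.49 under spike-in scaling. Hpx, the plasma haem carrier haemopexin, read 8.51, 8.59 and 9.45 on sMaf CKO arrays, against 8.20, 7.96 and 8.29 on control arrays (0.70, SE 0.30, adjusted p = 0.289). Flvcr2 and Hpx were the members of these lists whose sMaf CKO arrays all lay above the controls. Of all genes, 22.9% were apart in either direction, and in 11.6% the sMaf CKO arrays lay below. Cd163, the macrophage receptor for haemoglobin bound to haptoglobin, differed by 0.55 (adjusted p = 0.382) with overlap.

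No gene of bilirubin disposal passed the test over all genes, although all 6 differences were negative. The 6 listed genes of bilirubin uptake, binding, conjugation and export had negative differences, with a median of -1.23 beside -0.05 over all genes. The median was -0.92 under quantile normalization and -0.93 under spike-in scaling, where 5 of 6 were negative, and -0.82 without sMaf CKO replicate 1. None of them passed limma's test (0 of 6), while 5 had an unadjusted p under 0.05, as did 16.8% of all genes. The list was chosen with earlier results of these data known, so this count is not read against that share. Ugt1a1, the enzyme that conjugates bilirubin, read 0.30, 0.36 and -0.38 on sMaf CKO arrays, against 2.54, 1.68 and 1.16 on control arrays. Its difference was -1.70 (SE 0.39, adjusted p = 0.107), and blocking on slide brought it past the threshold (adjusted p = 0.0366); Ugt1a transcripts share their last exons, so the probe may read other members. Abcc3, which exports conjugates to blood, read 2.28, 2.72 and 2.29 on sMaf CKO arrays, against 4.43, 3.63 and 4.16 on control arrays. Its difference was -1.64 (SE 0.28, adjusted p = 0.0533), again past the threshold when blocked on slide (adjusted p = 0.0445). In both genes every sMaf CKO array lay below every control array.

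Factors that sense haem or control haem genes were read from 11 genes. Of these, 8 had negative differences (median -0.66, and -0.36 under spike-in scaling) and 0 passed limma's test. An unadjusted p under 0.05 was found in 7, beside 16.8% of all genes. The 7 include Mafg, itself a small Maf gene, and Nfe2l2 and Keap1, whose choice followed their values. Their number is therefore not read against that share. Besides Mafg, the smallest p was that of Bach1, the repressor of Hmox1 that haem inactivates. It read 0.34, -0.20 and -0.88 on sMaf CKO arrays, against 0.72, 0.92 and 1.10 on control arrays. The groups did not overlap, and the difference of -1.16 (SE 0.33, adjusted p = 0.16) was -0.75 within slide 1 and -1.99 within slide 2. Nfe2l2 and Keap1 were added after their values were seen. Nfe2l2, which encodes NRF2, read 3.88, 3.76 and 3.91 on sMaf CKO arrays, against 3.07, 3.16 and 3.28 on control arrays (0.68, SE 0.20, adjusted p = 0.167). Keap1, which holds NRF2 down, read 2.95, 3.30 and 2.67 on sMaf CKO arrays, against 3.97, 3.66 and 3.67 on control arrays (-0.80, SE 0.24, adjusted p = 0.182). Neither gene's groups overlapped, and neither difference passed.

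**Figure D3:**
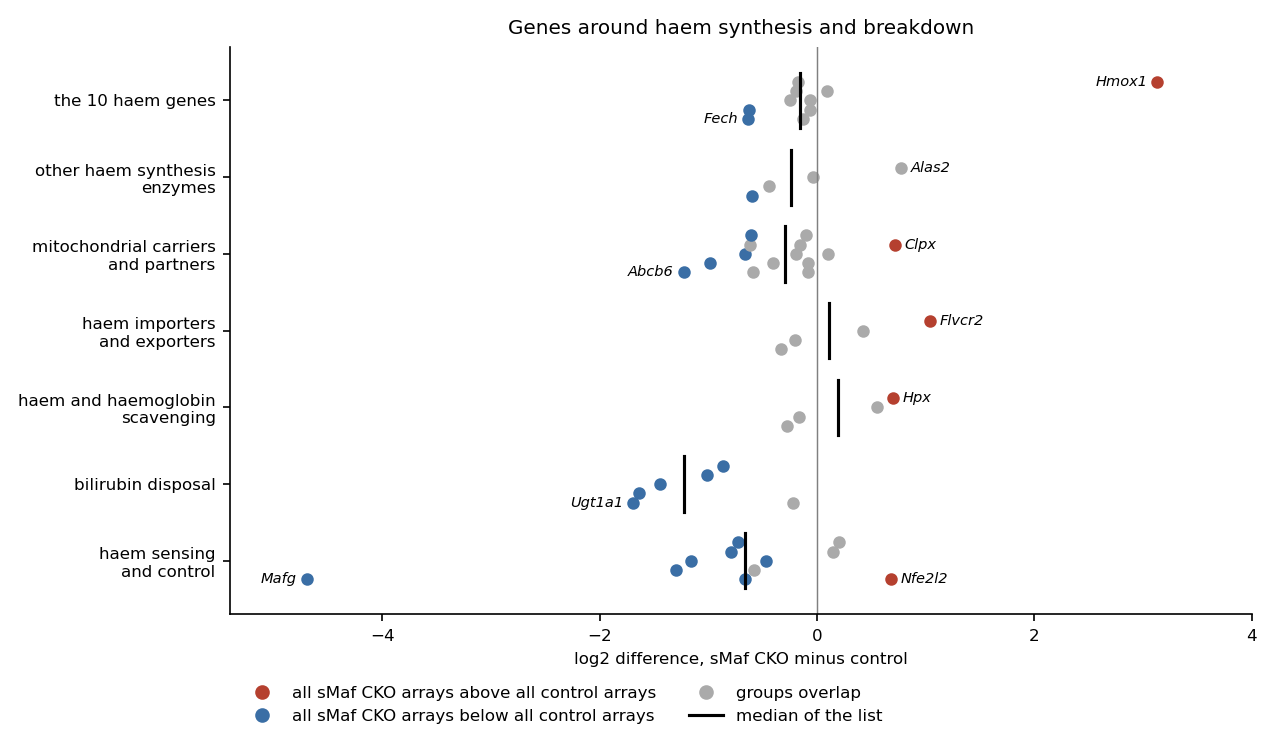
Log2 difference of sMaf CKO minus control (x axis) for the 10 haem genes and 6 lists of related genes (rows), 1 point per gene, with the list median as a black bar; red and blue mark genes whose sMaf CKO arrays all lie above or below the controls. Bilirubin disposal has the lowest median of the rows (-1.23), and Hmox1 stands alone among the 10 haem genes.

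The transcripts nearest to Hmox1 in profile were sought among 14178 other genes with a symbol, by the root mean square difference of log2 values centred on each gene's mean over the 6 arrays. Over all genes the median of this measure was 1.68. The nearest 6 were Syt12 (0.21), Ccdc120 (0.22), the chemokine Ccl2 (0.25), Ddit4l (0.27), the chemokine Ccl4 (0.31) and Inka2 (0.33). All 6 shared the highest value on sMaf CKO array 1, which was also the array of the highest Hmox1 reading. Choice by closeness to the Hmox1 profile favours such a shared array, so it is no separate result. Ccl2, a chemokine that draws monocytes, read 1.65, 0.24 and 0.24 on sMaf CKO arrays, against -1.71, -1.85 and -3.0 on control arrays. Its difference of 2.90 just missed the threshold in limma's test (adjusted p = 0.0533). Inka2 was not well above background in control liver and passed the filter on dim probes through the sMaf CKO arrays alone. The measure is a description over 6 arrays that share 2 slides, and a rise of this size in the sMaf CKO arrays is enough to bring a gene near.

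**Figure D4:**
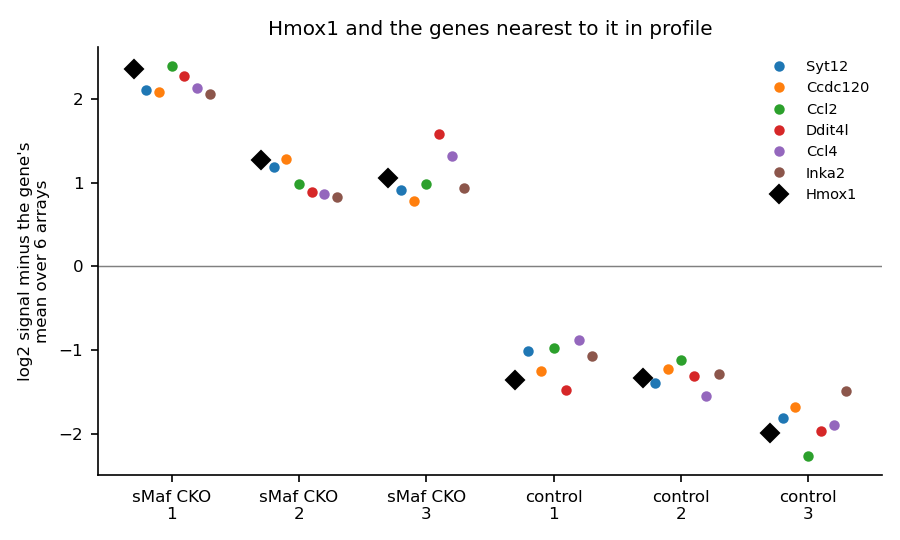
Log2 signal minus the gene's own mean over 6 arrays (y axis) on each array (x axis, sMaf CKO left of control), for Hmox1 (black diamonds) and its 6 nearest genes (coloured points). All 7 genes are above 0 on every sMaf CKO array and below 0 on every control array, which the choice by profile favours.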

How the data were processed

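Liver RNA of 6 samples was measured on 1-colour (Cy3) Agilent arrays. Per the file headers, the authors extracted spot intensities with Feature Extraction 10.7.3.1. The deposited intensity is background-subtracted and detrended within an array, and no step between arrays is recorded in the headers. The deposited log2 value table was matched to the scanner values: it equals them after scaling to the 75th percentile and centring of probes on their own medians, with 99% of absolute differences within 0.00380 to 0.0107 on an array. The medians of its columns were -0.1, -0.11 and 0.09 for sMaf CKO and 0.05, -0.02 and 0.08 for control.

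Log2 intensities were averaged over the spots of a probe without outlier flags, and the 75th percentile of the array over its 41174 non-control probes was subtracted. The 27859 probes kept were well above background on 3 or more arrays. Probes were named through their transcript accession in a RefSeq gene table (26690 with a symbol, 14484 without), and the brightest kept probe stood for a gene. A limma model (version 3.58.1, R 4.3.3) with genotype alone was run over 21059 genes, with Benjamini-Hochberg adjustment and a threshold of 0.05. The test was tried on simulated data first. Promoters were searched for letters, not sites.

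The haem genes, the lists and the naming rule were chosen with earlier results of these data known. Shares of all genes are therefore given beside the lists as a description, not as a test of them. Every haem gene is named, and from each other list the members that passed (at most 4), or else the 2 with the smallest p. Not every gene under this rule is reported here. Alternatives covered background correction, scaling, the deposited log2 table, filters, probe averaging, slide and replicate blocks, variance models and each array left out. Marker sums without their leading gene were added after seeing the data. Normexp used median spot and background intensities with an offset of 50, as no mean spot signal was in the files used here.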

Additional observations from a re-analysis of the deposited data

How the results depend on the processing

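Hmox1 kept its direction under every alternative tried. Of the 10 haem genes 1 had changed, and 0 had under quantile normalization, spike-in scaling, no filter on dim probes and an adjusted p under 0.01, and 0 to 1 with single arrays left out. Over all genes 114 had changed (81 higher, 33 lower). Normexp gave 74, quantile normalization 22, median scaling 252, spike-in scaling 12, the filter on all arrays 267, no filter 1, an adjusted p under 0.01 3, slide as a block 340, the replicate block 291, trended robust variances 308, array weights 513 and slide 1 alone 196, and leaving out single arrays gave 3 to 294. Within slide 1 the split was 110 higher and 86 lower. The causes were not tested.

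The median of the haem genes was 0.05 under quantile normalization, 0.148 under spike-in scaling and 0.046 within slide 2. Small differences changed sign: under quantile normalization Hmox2 (0.12), Alad (0.116) and Urod (0.182), under spike-in scaling Hmox2 (0.233), Blvra (0.237), Alad (0.056), Urod (0.169), Cpox (0.128) and Slc48a1 (0.109), and under array weights Hmox2 (0.009), where Alas1 was 0.76. With single arrays left out Hmox2 ran between -0.163 and 0.094, Blvra between -0.122 and 0.007, Alas1 between -0.495 and 0.464 and Urod between -0.373 and 0.107. Within slide 2, 1 array against 1, the sign also changed for Hmox2 (0.183), Blvra (0.098), Alad (0.023), Urod (0.236), Cpox (0.069) and Alas1 (-0.025). Whether replicate numbers pair the samples was not settled. Deviations of same-numbered samples correlated at 0.063, 0.166 and 0.424, and those of other pairs at -0.372 to 0.292. Replicates 2 and 3 of sMaf CKO correlated best with the control of the same number, but sMaf CKO replicate 1 correlated best with control replicate 2 (0.292). With the replicate block the adjusted p of Hmox1 was 0.0156. With 3 arrays a group, precision is limited by their number.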

Other observations

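Chosen after the values were seen, 2 genes are given beside the array order of Alas1. Nr1d1, a circadian repressor, read 0.57, -0.15 and 0.99 on sMaf CKO arrays 1, 2 and 3, and 1.64, 0.35 and 1.16 on control arrays 1, 2 and 3. Its lowest reading in each genotype was on array 2, where Alas1 was highest. Ppargc1a, a coactivator of hepatic Alas1, read 1.33, 2.11 and 0.37 on sMaf CKO arrays and 2.44, 2.73 and 2.53 on control arrays, with the highest reading of each genotype on array 2. For Nr1d1 and Ppargc1a only the place of array 2 was shared, as arrays 1 and 3 changed order between genotypes. The related factors Nr1d2 and Foxo1 did not share the place of array 2 either. Nr1d2 was lowest of its genotype on sMaf CKO array 2 (1.153) but highest on control array 2 (2.325). Foxo1 was highest on sMaf CKO array 2 (2.835) but lowest on control array 2 (2.945). These are readings of 6 arrays, and no relation was tested.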
